A study of Mus musculus with 6 samples.

Results

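Both transgenic mouse lines of the series were taken as a single group and compared with B6 control hearts, to find the heart transcripts that changed in both lines and by a like amount in each. All 6 arrays of the series enter this comparison: 4 transgenic arrays (2 labelled RKIP-transgenic and 2 labelled GRK-Inh-transgenic) and 2 B6 control arrays. Total heart RNA of male mice aged 2 months was measured on Affymetrix mouse arrays with 45101 probe sets. RKIP-transgenic mice carried RKIP behind the alpha-MHC promoter, which is active in heart muscle cells, and GRK-Inh-transgenic mice made a peptide inhibitor of G-protein-coupled receptor kinases in the myocardium, from a promoter that the labels do not name. Every group is labelled with the B6 strain background, and each transgene is represented by a single line. The controls are labelled as B6 mice, with no transgene named for them. Nothing in the labels states that both arrays of a group are from different mice. The p-values therefore reflect the spread among these 6 samples alone, and part or all of that spread may be technical.

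RKIP (Raf kinase inhibitor protein, gene Pebp1) is a regulator of kinase signalling that, once phosphorylated by protein kinase C, binds and inhibits G-protein-coupled receptor kinase 2. These receptor kinases mark active receptors, such as the beta-adrenergic receptors of heart muscle, for arrestin binding and desensitisation. A peptide inhibitor of the receptor kinases is directed at the same kinases. In stressed heart muscle, natriuretic peptide genes and genes of the fetal heart are known to be switched on, while collagen genes are mostly expressed by cardiac fibroblasts.

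Values below are the deposited signals, or differences of log2(signal + 50), called log2 changes. The joint log2 change is the mean of the 2 lines minus control, given ± the SE of the fit, and the line difference is RKIP-transgenic minus GRK-Inh-transgenic. Genes are termed called where limma's two-sided test gave an adjusted p (Benjamini-Hochberg) under 0.05. The signal of Pebp1 itself was 9102 and 9140 on the RKIP-transgenic arrays, 9079 and 9296 on the GRK-Inh-transgenic arrays and 9292 and 8766 on the control arrays. The groups overlapped, the joint log2 change was 0.02 ± 0.036, and no measurement here checks the label of the RKIP line, because probes for the mouse transcript may not read a transgene. Genes that mark heart muscle cells were at high signals on all arrays, with Myh6 at 35910 to 39470.

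Of 11254 genes tested, 1537 were called (13.7%), 705 higher (6.26%) and 832 lower (7.39%) in the transgenic hearts. After the arrays were shifted to one median, 56.2% of the called genes were higher, against 45.9% without the shift. Leaving the difference between the lines in the error term, as in a plain comparison of 4 arrays with 2, gave 381 called genes, and a variance estimated without a trend along the signal gave 533. Without B6 control array 1 the number was 775, and without B6 control array 2 it was 747. The 3'/5' ratio of the actin control probe sets lay between 2.92 and 3.03 on the transgenic arrays and was 3.25 and 3.11 on the control arrays. The ratio for Gapdh was 0.955 to 1.02 on the transgenic arrays and 1.08 and 1.03 on the controls, and the part of RNA quality in the results was not tested.

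A joint change of at least 0.5 (log2) was found for 317 of the called genes, 139 higher and 178 lower. In 302 of these 317 genes all 4 transgenic arrays lay on the same side of both control arrays, against 3454 of all genes tested (30.7%). The 317 genes were chosen from the same values, so this separation largely follows from the choice and is no separate support. The change was taken as of like size in both lines when the arrays were apart in this way and the 95% interval of the line difference lay within 0.5 (log2) of 0. This held for 147 genes (1.31% of those tested), of which 59 rose (0.524%) and 88 fell (0.782%). Their median absolute joint change was 0.61 and their median absolute line difference 0.098. In 19 of the 147 the line difference was called all the same, so like size means within this bound and not identical. Separate arrays are part of the rule, so a lack of overlap in these genes is no further evidence.

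For 107 of the 317 genes (33.8%) the line difference was called, against 8.82% of all genes tested. The group of like size is bounded by Irf7 (line difference interval -0.37 to 0.50) and Dennd4a (-0.17 to 0.50) on the inside and by Tbxa2r (-0.25 to 0.50) and Ndufa4l2 (-0.50 to 0.49) just outside. The genes on either side of the bound differ by hundredths of a log2 unit, and the bound is a rule rather than a gap in the data.

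**Figure D1:**
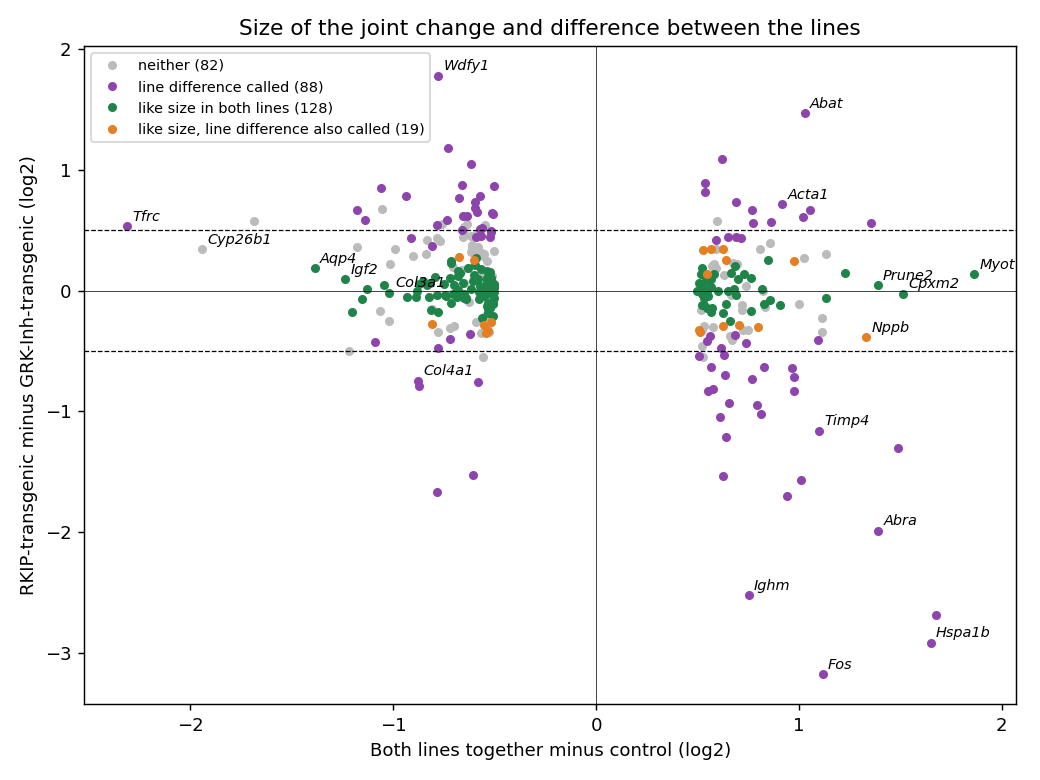
Joint log2 change of both lines against control (horizontal) and line difference (vertical, log2) for the 317 called genes with a joint change of at least 0.5; each point is a gene and the dashed lines mark 0.5 on either side of 0. Green and orange points are the 147 genes of like size, 19 of them (orange) with a called line difference; purple points (88) have a called line difference outside that group, and the lowest ones are heat shock and immediate early genes such as Fos and Hspa1b, which were higher in the GRK-Inh line.

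To show the upstream sequence of genes that moved by like amounts, the 250 bases before the RefSeq start of transcription (GRCm38.p6, plus strand in all 4 cases) are given for Nppb and Prune2, which rose, and for the collagen genes Col1a2 and Col3a1, which fell. The windows lie at chr4:147985650-147985899 for Nppb, chr19:16955868-16956117 for Prune2, chr6:4505368-4505617 for Col1a2 and chr1:45311288-45311537 for Col3a1.
Nppb: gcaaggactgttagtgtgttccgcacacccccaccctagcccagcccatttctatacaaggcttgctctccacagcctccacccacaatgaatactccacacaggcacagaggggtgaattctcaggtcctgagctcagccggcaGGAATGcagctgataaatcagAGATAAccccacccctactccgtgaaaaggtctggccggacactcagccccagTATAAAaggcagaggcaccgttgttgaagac
Prune2: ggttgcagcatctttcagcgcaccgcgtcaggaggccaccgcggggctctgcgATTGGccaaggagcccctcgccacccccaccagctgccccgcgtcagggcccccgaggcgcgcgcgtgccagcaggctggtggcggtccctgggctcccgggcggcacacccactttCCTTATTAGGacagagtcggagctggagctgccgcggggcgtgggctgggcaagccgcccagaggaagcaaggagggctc
Col1a2: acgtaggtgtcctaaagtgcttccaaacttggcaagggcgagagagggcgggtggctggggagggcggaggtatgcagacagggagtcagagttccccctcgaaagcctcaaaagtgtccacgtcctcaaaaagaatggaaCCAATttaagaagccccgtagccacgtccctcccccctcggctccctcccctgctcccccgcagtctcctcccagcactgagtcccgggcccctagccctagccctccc
Col3a1: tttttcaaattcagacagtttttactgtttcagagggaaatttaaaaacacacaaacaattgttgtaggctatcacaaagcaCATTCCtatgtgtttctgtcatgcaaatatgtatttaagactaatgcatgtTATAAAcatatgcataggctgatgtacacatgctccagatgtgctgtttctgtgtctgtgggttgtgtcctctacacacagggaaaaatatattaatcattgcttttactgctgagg
Capitals mark matches on either strand to 5 motifs that were chosen after the values were seen: the MCAT element with the letters CATTCC, the GATA site with the letters AGATAA, the CCAAT box, the TATA box with the letters TATAAA, and the CArG box of serum response factor. The Nppb window holds an MCAT match on the minus strand at bases -105 to -100 from the start, a GATA match at -84 to -79 and a TATA match at -31 to -26. In Prune2 a CArG match lies at -80 to -71 and a CCAAT match on the minus strand at -197 to -193. Col1a2 has a CCAAT match at -109 to -105, whereas Col3a1 has an MCAT match at -168 to -163 and a TATA match at -117 to -112.

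The 4 promoters thus share no single one of these motifs. Over the promoters found for 50 of the 59 rises, 20% held the MCAT letters, 8.0% GATA, 46.0% CCAAT, 14.0% TATA and 4.0% CArG. Over the 69 promoters found for the 88 falls the shares were 14.5%, 2.9%, 39.1%, 13.0% and 2.9%. Windows of the same length for the 9087 tested genes that have one held them in 13.0%, 7.2%, 40.2%, 8.3% and 1.4% of cases. A match is a description of letters, not evidence that a factor binds there.

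The largest rise of like size was that of Myot, the gene of myotilin, a Z-disc protein that cross-links actin filaments. Its signal was 2231 and 2136 on the RKIP-transgenic arrays, 1954 and 2013 on the GRK-Inh-transgenic arrays, and 496 and 579 on the control arrays. All 4 transgenic arrays lay far above both controls and close to each other, with a joint log2 change of 1.86 ± 0.066 (adjusted p = 9.2e-08) and changes of 1.93 and 1.79 in the RKIP and GRK-Inh lines. Trim54, the gene of the titin-associated ring finger protein MuRF3, rose from 1342 and 1483 to 3190 and 2976 in the RKIP line and to 2587 and 2590 in the GRK-Inh line. Its joint change was 0.98 ± 0.054, and its small line difference was called. Ankrd23, the gene of an ankyrin repeat protein that binds titin at the sarcomere, rose by 0.80 ± 0.071, with 0.65 and 0.95 in the 2 lines and a called line difference.

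By their median, the genes of the muscle structure as a whole did not rise with Myot. It was a joint change of 0.023 for the 25 sarcomere and Z-disc genes tested, against -0.023 for all genes. Of these 25 genes 7 rose and 3 fell, against 6.26% higher and 7.39% lower over all genes. With the line difference in the error 2 members were called higher and 0 lower, and without the variance trend 1 and 0. Synpo2l, of the Z-disc, rose by 0.37 and Lmod2, which lengthens thin filaments, by 0.26, whereas Tcap, which caps titin, fell by 0.30. Among the rises of like size picked after their values were seen, Nrap, an actin-anchoring protein of intercalated discs and growing myofibrils, rose by 0.64 ± 0.041. Cavin4, a caveolar protein of muscle, rose by 0.68 ± 0.057.

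Nppb, which encodes the natriuretic peptide BNP, a marker of wall stress, was the brightest of the large rises. The control arrays gave 5374 and 5496, the RKIP-transgenic arrays 11850 and 12190 and the GRK-Inh-transgenic arrays 15770 and 15690. All transgenic arrays were above both controls with no overlap, and the joint log2 change was 1.33 ± 0.032 (adjusted p = 2.5e-09). The rise was 1.14 in the RKIP line and 1.52 in the GRK-Inh line, and that difference of -0.39 was called although it stayed within the bound. The related gene Nppa, for the atrial natriuretic peptide, was not called: its joint change was -0.082 ± 0.028 (adjusted p = 0.077), with signals of 24400 to 26760 on the 6 arrays, among the highest measured. Saturation of so bright a probe set was not tested.

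Of 21 fetal and hypertrophy genes tested, 12 rose and 3 fell, against 6.26% higher and 7.39% lower over all genes. Their median joint change was 0.29. Nppb alone of these 12 had a rise of like size, and the line difference was called for 12 of the 21 genes. Acta1, the skeletal muscle actin gene that the fetal heart uses, was at 4919 and 4981 in the RKIP line, 2953 and 3036 in the GRK-Inh line and 2122 and 1909 in controls. The transgenic arrays did not overlap with the controls, yet the rise was 1.28 in the RKIP line and 0.56 in the other. Myh7, the slow beta-myosin gene, had a joint change of 0.42 that came from 0.85 in the RKIP line beside -0.002 in the GRK-Inh line, so it was no common change. In the comparison of 4 arrays with 2, which counts such differences as error, 3 members of the list were called higher, and Acta1 and Myh7 were not among the genes called there.

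Other members of this list did change by near amounts in the 2 lines. Enah, an actin-assembly gene, rose by 0.42 and 0.44 in the RKIP and GRK-Inh lines. Fhl1, a stretch-sensing LIM-domain gene, rose by 0.22 and 0.35. Both lay under the minimum of 0.5. Postn, the gene of the fibroblast matrix protein periostin, fell by 0.48 and 0.49.

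Several further genes rose by like amounts at low to middle signals. Cpxm2, of the carboxypeptidase family, was at 666 and 635 in the RKIP line, 637 and 689 in the GRK-Inh line and 193 and 203 in controls, a joint change of 1.51 ± 0.080. A dimmer probe set of the gene gave 0.44 and was not called. Prune2 rose from 522 and 495 to 1404 and 1465 in the RKIP line and 1393 and 1383 in the GRK-Inh line, a joint change of 1.39 ± 0.059. Of its 4 probe sets 3 were called higher, at 1.06 to 1.39, and the dimmest gave 0.44 without a call.

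Scn4b, a beta subunit of the voltage-gated sodium channel, rose from 84.8 and 105 to 274 and 341 in the RKIP line and to 268 and 276 in the GRK-Inh line. The joint change was 1.23 ± 0.12, and the higher RKIP array stood apart from the other 3 transgenic arrays. Pde7a, the gene of a phosphodiesterase that breaks down cyclic AMP, was at 725 and 791 in the RKIP line, 923 and 680 in the GRK-Inh line and 327 and 326 in controls. It rose by 1.13 ± 0.11, and all 7 of its probe sets rose, by 0.62 to 1.38. Epha4, an ephrin receptor gene, rose by 0.86 ± 0.071 with the probe set used, but its 5 probe sets disagreed, from -0.062 to 0.86. Rnf19b, a ubiquitin ligase gene, rose by 0.91 ± 0.14 from control signals of 119 and 82.5.

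Below these, Aox1 (an aldehyde oxidase), Lrtm1, Cngb3 (a cyclic-nucleotide-gated channel subunit), Tmem144 and B3galt2 (a galactosyltransferase) rose by 0.76 to 0.85 with arrays apart. Sqstm1, which encodes the autophagy receptor p62, and Gabarapl1, which encodes a protein of the autophagosome membrane, were picked after their values were seen and rose by 0.70 ± 0.047 and 0.63 ± 0.082. The signal of Sqstm1 was 2532 and 2498 in the RKIP line, 2288 and 2408 in the GRK-Inh line and 1467 and 1490 in controls, with no overlap. Nampt, whose enzyme makes an NAD precursor, rose by 0.66 ± 0.039 and was picked the same way.

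**Figure D2:**
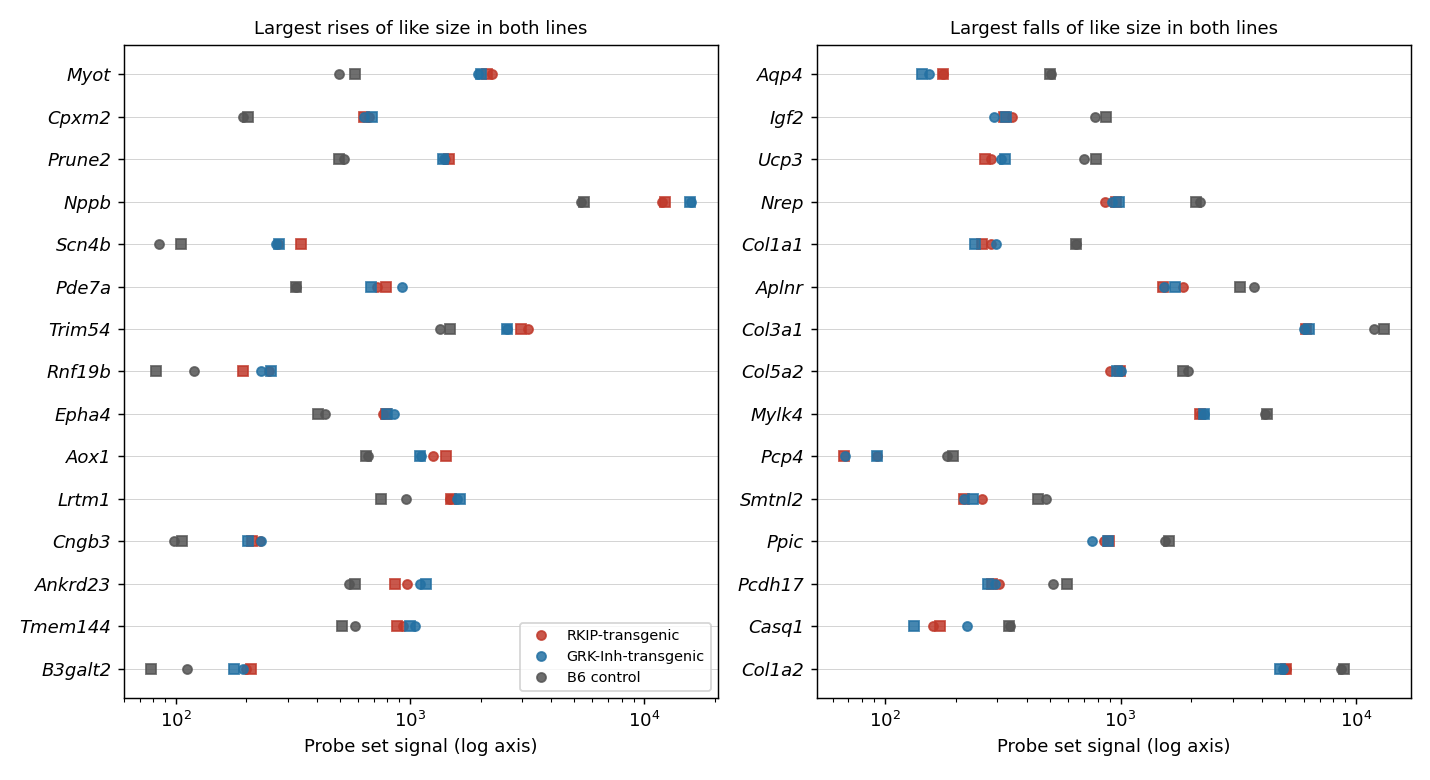
Signal on each array (log axis) for the 15 largest rises (left) and the 15 largest falls (right) of like size; red is RKIP-transgenic, blue GRK-Inh-transgenic and grey B6 control, with a circle for replicate 1 and a square for replicate 2. In each row the 4 transgenic points lie on one side of both control points, as the rule for these genes requires; Nppb is the brightest rise, and its GRK-Inh points (15690 and 15770) lie to the right of its RKIP points.

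Genes of the extracellular matrix fell together. Of 28 collagen and matrix genes tested, 24 fell and 1 rose, against 7.39% lower and 6.26% higher over all genes, and 12 of the falls were of like size. The list's median log2 change was -0.52 jointly, -0.58 in the RKIP line and -0.51 in the GRK-Inh line, beside medians of -0.023, -0.017 and -0.031 over all genes. In 23 members all 4 transgenic arrays lay below both controls. Leaving out any array in turn gave 19 to 24 members called lower, and the comparison of 4 arrays with 2 gave 17. These changes in matrix genes were already known for each line when the list was drawn up, so its direction is no independent evidence.

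Col1a1 and Col1a2 encode the chains of type I collagen, the main fibre of scar and connective tissue. Col1a1 was at 282 and 259 in the RKIP line, 296 and 241 in the GRK-Inh line and 646 and 646 in controls, a joint change of -1.13 ± 0.097, with -1.12 and -1.13 in the 2 lines. Col1a2 was at 5052 and 5043, 4892 and 4754, and 8642 and 8840 in the same order of groups, a change of -0.82 ± 0.036, and its second probe set gave -1.48. Col3a1, for type III collagen, was at 6065 and 6110 in the RKIP line, 6018 and 6327 in the GRK-Inh line and 11890 and 13060 in controls. Its joint change was -1.02 ± 0.043 (adjusted p = 3.3e-07) and the interval of its line difference was -0.13 to 0.091. For these 3 fibrillar collagen genes the 4 transgenic arrays formed a narrow band well below both controls.

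Col5a2, a chain of type V collagen that seeds fibrils, fell by 0.96 and 0.91 on the log2 scale in the RKIP and GRK-Inh lines. The fibril-associated Col14a1 fell by 0.72 and 0.78. The type VI collagen chains Col6a1 and Col6a2 fell jointly by 0.54 and 0.51, and Loxl1, which cross-links elastin and collagen, by 0.52. Sparc, a collagen-binding secreted protein, fell by 0.81 ± 0.040 within the bound but with a called line difference. Of the cell-adhesive glycoproteins, Fn1 (fibronectin) fell by 0.52 and the basement membrane linker Nid1 by 0.56, both of like size.

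Basement membrane collagen did not behave alike in both chains. Col4a2 fell by 0.81 ± 0.050, with 0.89 and 0.73 in the RKIP and GRK-Inh lines and of like size. Col4a1, the partner chain, was at 2191 and 2143 in the RKIP line, 3504 and 3841 in the GRK-Inh line and 5205 and 5258 in controls. It fell by 1.25 in one line and 0.51 in the other, a called line difference, and the joint call was lost when that difference was left in the error. Its dimmer probe set gave a joint change of -0.13 without a call, with -0.33 and 0.07 in the lines. Serpinh1, the collagen chaperone HSP47, fell by 0.86 in the RKIP line and was 0.29 higher in the GRK-Inh line. P4ha1, a subunit of the enzyme that hydroxylates collagen, was the member called higher, with -0.18 and 1.08 in the 2 lines.

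Eln, the elastin gene, fell by 1.02 ± 0.10 from control signals of 365 and 377, with line changes of -1.15 and -0.90 whose interval reached just past the bound. Mmp2, a gelatinase that degrades collagen, fell by 0.55 ± 0.063 and was of like size. Among 19 matrix protease, inhibitor and matricellular genes 2 rose and 4 fell, against 6.26% and 7.39% over all genes. Timp4, an inhibitor of matrix proteases, rose by 0.52 and 1.68 in the RKIP and GRK-Inh lines. In the comparison of 4 arrays with 2 the list had 1 member called higher and 2 lower. The line difference of Timp4 was called and its joint call was lost in that comparison.

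**Figure D3:**
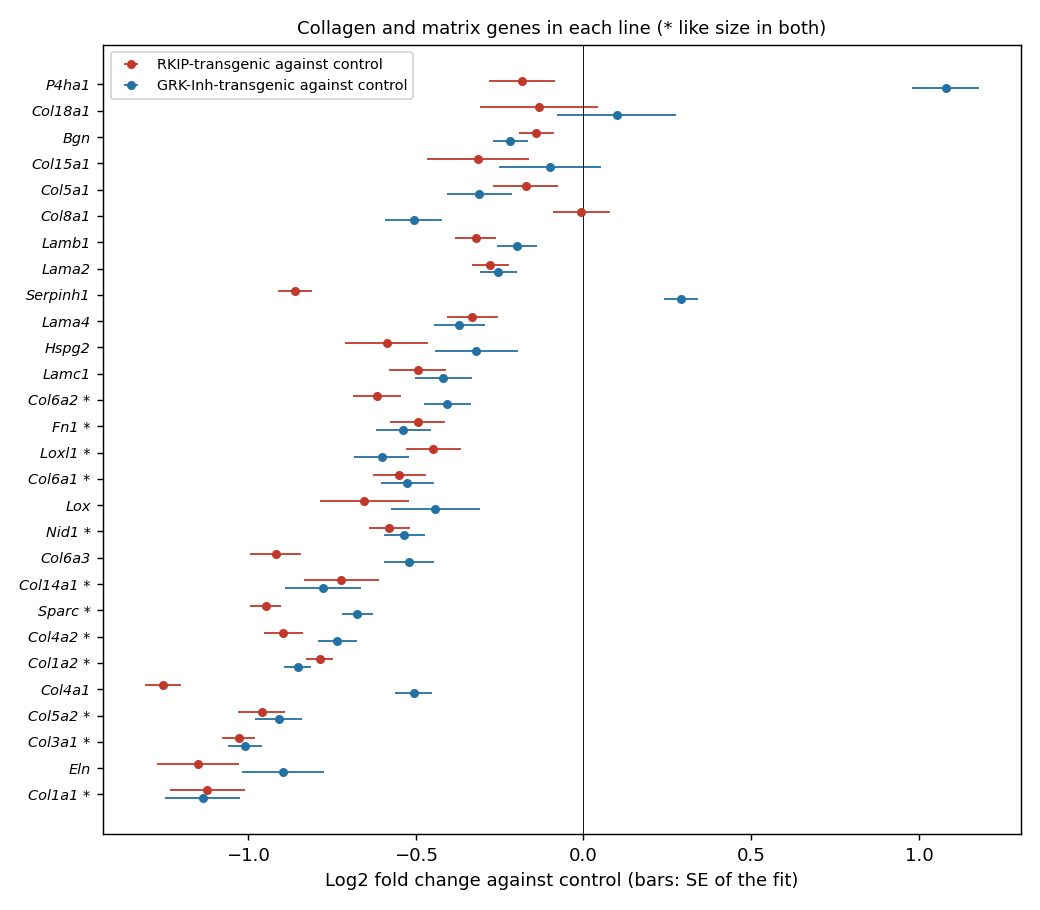
Log2 change against control of each of the 28 collagen and matrix genes tested, in the RKIP line (red) and the GRK-Inh line (blue); points are the fitted changes, bars the SE of the fit, and an asterisk marks the 12 falls of like size. Most pairs of points lie together left of 0, while Col4a1, Serpinh1, P4ha1 and Col8a1 show the lines apart; both lines share the same 2 control arrays.

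Markers of some other cell types were lower beside the matrix genes. Fibroblast markers were lowest by median change and share called, but not by the relative fall of summed signal. Of 14 fibroblast markers, 9 fell and 0 rose, against 7.39% lower and 6.26% higher over all genes, with a median of -0.31. With the line difference in the error or without the variance trend 4 fell. The signals of the 13 fibroblast markers outside the matrix list summed to 60771 to 65315 on the transgenic arrays and to 71659 and 71774 on the control arrays. Pdgfra, a defining receptor of cardiac fibroblasts, fell by 0.38 (a call lost without B6 control array 2 and without the variance trend) and Dcn (decorin) by 0.13, whereas Tcf21 (-0.38, adjusted p = 0.060), Vim (-0.084) and Fbln2 (0.062) were not called. No defining fibroblast marker was at 0. Mfap4, a microfibril protein of fibroblasts, had the deepest fall of these markers besides Col1a1, at a log2 change of -1.05 that ranged from -1.36 to -0.55 over the alternatives. The call of Mfap4 was lost without B6 control array 2, without the variance trend and in the comparison of 4 arrays with 2. In whole-heart RNA, fewer cells of a type and less RNA per cell cannot be told apart.

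Of 13 smooth muscle and pericyte markers 6 fell and 0 rose, against 7.39% lower and 6.26% higher over all genes. Their median was -0.21, with summed signals of 32992 to 33303 on transgenic and 38072 and 39151 on control arrays. These 6 numbered 1 in the comparison of 4 arrays with 2 and 2 without the variance trend. Of 16 endothelial markers 4 fell and 0 rose (median -0.065), with sums of 30199 to 32106 against 36086 and 37308, and 2 and 1 were called lower under those settings. Of 15 macrophage markers 2 fell (13.3%, near the 13.7% called over all genes), with a median of -0.089 and counts of 0 and 1 under the same settings, and their sums overlapped at 19836 to 21767 against 21148 and 22176. Of 8 atrial markers 3 fell, with Bmp10 at a log2 change of -0.85 and -1.43 in the RKIP and GRK-Inh lines, with sums of 65947 to 70991 against 72608 and 73315, and 1 was called lower in the comparison of 4 arrays with 2. Of 7 lymphocyte markers 1 rose and 0 fell (14.3%, near the 13.7% over all genes), and 0 were called in the comparison of 4 arrays with 2. The riser, Ighm, was at log2 changes of -0.51 and 2.01 in the RKIP and GRK-Inh lines, no common change. Of 4 brown adipocyte markers 2 rose and 0 fell, with 1 called higher in the comparison of 4 arrays with 2. Their sums overlapped at 24606 to 26111 against 25337 and 25442. Of 9 cardiomyocyte markers 1 fell, Actc1 by 0.091, a call lost under 14 of 18 alternatives, and the median was -0.066. Bright members weigh most in these sums. Fabp4 (mean log2 value 14.29, joint change -0.22) is in the endothelial sum and in that of the white adipocyte markers. Its other probe sets gave -0.38, which was called, and -0.20 and -0.088, which were not. Rgs5 (13.83 and -0.21), in the smooth muscle and pericyte sum, had other probe sets at -0.11 to 0.015 without a call. The part of cell composition in the fall of the matrix genes was not tested.

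Further falls of like size included genes of growth factors and receptors. Igf2, the gene of insulin-like growth factor 2, was at 347 and 320 in the RKIP line, 292 and 327 in the GRK-Inh line and 780 and 868 in controls, a joint change of -1.24 ± 0.088 (adjusted p = 9.5e-06). Igfbp3, which encodes a binding protein for these factors, fell by 0.58 ± 0.067 and was of like size as well. Igf1 fell by 0.62 and 0.99 in the RKIP and GRK-Inh lines, a called line difference, with control signals of 1359 and 1305 and transgenic signals of 642 to 860. In the list of growth hormone axis and cytokine feedback genes 8 of 16 members fell and 0 rose, against 7.39% and 6.26% over all genes. The median was -0.20, and 4 fell in the comparison of 4 arrays with 2.

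Aplnr, the receptor of apelin, which in the heart is best known from endothelial cells, was at 1837 and 1520 in the RKIP line, 1533 and 1700 in the GRK-Inh line and 3669 and 3221 in controls. It fell by 1.04 ± 0.080, and its second probe set fell by 0.60. Nrep, a gene linked to connective tissue cells and regeneration, fell by 1.15 ± 0.064 from 2182 and 2084 to signals of 861 to 989. Both genes showed no overlap between transgenic and control arrays, as the rule for like size requires. Aplnr is itself 1 of the 16 endothelial markers summed above, whose median change was -0.065, so that sum is not separate from its fall. The fall of Nrep stood beside the lower fibroblast marker sums.

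Aqp4, a water channel gene, had the largest fall of like size. The arrays gave 176 and 176 in the RKIP line, 154 and 143 in the GRK-Inh line and 505 and 503 in controls, a joint change of -1.39 ± 0.097 (adjusted p = 8.8e-06). Its dimmer probe set fell by 0.73. Of the 5 aquaporin genes tested, Aqp1 also had a called joint fall, of 0.25, but it was -0.47 in the RKIP line and -0.025 in the GRK-Inh line with a called line difference. That joint call was lost without the variance trend and in the comparison of 4 arrays with 2. Aqp8 rose by 1.02 ± 0.14 with a called line difference, from control signals of 44.0 and 34.6 that lie below the filter level of 50.2.

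Genes of muscle signalling and calcium storage were among the falls of like size too. Mylk4, a myosin light chain kinase gene of striated muscle, was at 2187 and 2166 in the RKIP line, 2254 and 2264 in the GRK-Inh line and 4094 and 4185 in controls. It fell by 0.89 ± 0.042, with line changes of -0.91 and -0.86. Casq1, the skeletal form of the calcium-storing calsequestrin, fell by 0.82 ± 0.15, and this call was lost without B6 control array 1, without B6 control array 2 and without the variance trend. The cardiac form Casq2 fell by 0.15. Among 21 calcium handling genes 3 rose and 3 fell, against 6.26% and 7.39% over all genes. The counts were 1 and 1 in the comparison of 4 arrays with 2 and 1 and 0 without the variance trend, and 0 to 1 fell without a control array. Atp2a2 (-0.065), Pln (-0.082) and Ryr2 (-0.029), of the calcium pump, its inhibitor and the release channel, were not called.

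The remaining large falls of like size were those of Pcp4 (a calmodulin regulator, -0.88), Smtnl2 (-0.87), Ppic (a cyclophilin, -0.85) and Pcdh17 (a protocadherin, -0.83). The dimmer probe set of Smtnl2 gave -0.55 without a call, and that of Pcdh17 gave -0.88. In both of these the line difference interval reached outside the bound. Pcp4 fell to signals of 66.9 to 92.6 from 183 and 194, near the filter level, and its change ranged from -1.10 to -0.47 over the alternatives.

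The largest fall of all was that of Tfrc, the transferrin receptor through which cells take up iron. Its signal was 1795 and 1712 in the RKIP line, 1180 and 1210 in the GRK-Inh line and 7504 and 7303 in controls. Both lines lay far below the controls, with a joint change of -2.31 ± 0.046 (adjusted p = 5.9e-10), but the change of -2.58 in the GRK-Inh line was larger than the -2.05 of the RKIP line, a called line difference outside the bound. All 3 of its probe sets fell, the other 2 by 0.93 and 1.37. In those 2 dimmer probe sets the line difference intervals, -0.45 to 0.20 and -0.23 to 0.49, lay within the bound. The larger fall in the GRK-Inh line thus rests on the probe set used.

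Slc40a1, the gene of ferroportin, which exports iron, rose by 0.64 ± 0.057 and by like amounts, with 1384 and 1417 in the RKIP line, 1467 and 1572 in the GRK-Inh line and 936 and 902 in controls. Its second probe set rose by 0.57. Of 19 iron handling genes 1 rose and 5 fell, against 6.26% and 7.39% over all genes, and their median was near that of all genes. Aco1 and Ireb2, the genes of the iron regulatory proteins, which stabilise the Tfrc transcript when iron is low, fell by 0.27 and 0.30. Heph, a ferroxidase gene, fell by 0.65 at signals of 33.2 to 115. The calls of Aco1, Ireb2 and Heph were lost without B6 control array 1 and without B6 control array 2. With the line difference in the error 1 member was called lower. Fth1, the heavy chain of the iron store ferritin, had a joint change of 0.006 and was not called.

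Genes of the retinoid pathway had the next largest falls. Cyp26b1, whose enzyme breaks down retinoic acid, was at 246 and 270 in controls, 32.6 and 48.5 in the RKIP line and 12.8 and 30.8 in the GRK-Inh line, a joint change of -1.94 ± 0.16. Lrat, whose enzyme stores retinol as esters, was at 207 and 187 in controls and at 2.19 to 56.5 on the transgenic arrays, a change of -1.69 ± 0.19. The transgenic signals of both genes lay around or below the filter level, so the sizes depended on the offset, from -2.59 to -0.99 and from -2.40 to -0.80 over the alternatives. For neither gene did the interval of the line difference lie inside the bound. Of 13 retinoid genes tested 3 fell and 1 rose, against 7.39% and 6.26% over all genes. The counts were 2 and 0 in the comparison of 4 arrays with 2, and the median was close to 0.

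Fuel genes moved in both directions. Ucp3, a mitochondrial carrier gene that responds to fatty acids, was at 282 and 267 in the RKIP line, 310 and 322 in the GRK-Inh line and 700 and 789 in controls, a fall of 1.20 ± 0.086 of like size. The dimmer Ucp3 probe set fell by 1.61 and 0.87 in the RKIP and GRK-Inh lines. Its line difference interval of -1.21 to -0.26 reached outside the bound, so like size holds for the probe set used only. Angptl4, an inhibitor of lipoprotein lipase and another fatty acid target, fell by 1.3 and 0.88 in the RKIP and GRK-Inh lines with a called line difference. Ppargc1b, a coactivator of mitochondrial genes, fell by 0.53 ± 0.046 within the bound. In the same list of 16 PPAR-responsive genes 6 rose and 5 fell, against 6.26% and 7.39% over all genes. The counts were 2 and 4 in the comparison of 4 arrays with 2. Ppara, the fatty acid receptor itself, rose by 0.46 ± 0.066, and its target Acot1, a thioesterase, by 0.50, a call lost without B6 control array 2. White adipocyte markers stood beside these genes: 3 of 7 fell (1 in the comparison of 4 arrays with 2) and 0 rose, against 7.39% and 6.26% over all genes. Their medians were -0.34 in the RKIP line and 0.006 in the GRK-Inh line. Their summed signals were 53488 to 55693 on transgenic and 58172 and 60992 on control arrays. Their part in the changes of fuel genes was not tested.

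Fatty acid oxidation enzymes changed little: 5 of 22 rose and 0 fell, with a median of 0.053, the largest rise being 0.21 for Hadha, a call lost without B6 control array 1. All 5 calls were lost in the comparison of 4 arrays with 2 and without the variance trend. Of 27 oxidative phosphorylation genes 1 rose, Cox6a2 by 0.10, a call lost under 10 of 18 alternatives, and its second probe set gave 0.035 without a call. Of 22 genes of glucose uptake and glycolysis 8 rose and 1 fell, against 6.26% and 7.39% over all genes, with a median near 0.07. The rises numbered 2 in the comparison of 4 arrays with 2 and 4 without the variance trend. Ppp1r3c, a subunit that directs a phosphatase to glycogen, rose by like amounts, from 3190 and 2953 to 4896 to 5078 (0.69 ± 0.043). Pfkfb2, which sets the activator of phosphofructokinase, rose by 1.06 and 0.32 in the RKIP and GRK-Inh lines with a called difference. Bdh1, for ketone body use, and Abat, for GABA breakdown, rose by 1.05 and 1.03 jointly, both more in the RKIP line, and the call of Abat was lost in the comparison of 4 arrays with 2.

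Genes of the signalling that the transgenes act on were called in both directions. Of 20 genes of RKIP, receptor kinases, arrestins and their regulators, 1 rose and 3 fell. Grk5, a receptor kinase of heart muscle, was at 828 and 870 in the RKIP line, 867 and 773 in the GRK-Inh line and 596 and 540 in controls, a rise of 0.52 ± 0.075 (adjusted p = 0.0012) of like size. Its dimmer probe set gave 0.36 and was not called, with 0.57 and 0.16 in the 2 lines and a line difference interval reaching outside the bound. Rgs2, which shortens Gq signalling, fell by 0.72 and 0.37 in the 2 lines, within the bound and with a called difference, and all 3 of its probe sets fell.

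Of 21 adrenergic, cyclic AMP and protein kinase A genes 1 rose and 3 fell, and 0 and 0 were called in the comparison of 4 arrays with 2 or without the variance trend. The largest of these 4 changes was a fall of 0.37 for the cardiac adenylyl cyclase gene Adcy5, which 10 of 18 alternatives did not call. The 3 falls include Phlda1 (-0.23), a pleckstrin homology-like domain gene that is no core component of this pathway. Adcy1, an adenylyl cyclase gene outside the list that was picked after its values were seen, had a fall of like size, with a log2 change of -0.72 ± 0.15. Of 14 RAF-MEK-ERK and feedback genes limma called 0 higher and 0 lower (2 higher and 3 lower at an unadjusted p under 0.05), and Map2k1, the gene of a MEK kinase, had a joint change of 0.092. These counts of 4 of 20, 4 of 21 and 0 of 14 stand beside the 13.7% called over all genes, and the 2 genes of like size among the 20, Grk5 and Rgs2, beside 1.31%.

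Of 19 ion channel and connexin genes 2 rose and 4 fell, against 6.26% and 7.39% over all genes, and the 4 falls numbered 1 in the comparison of 4 arrays with 2. Beside Scn4b, Kcnv2, a modifier subunit of potassium channels, rose from 119 and 102 to 239 and 278 in the RKIP line and 334 and 344 in the GRK-Inh line, by 1.11 ± 0.11. Kcne1, the beta subunit of the slow delayed rectifier channel, fell from 297 and 303 to 93.2 and 62.5 in the RKIP line and 132 and 126 in the GRK-Inh line, by 1.22 ± 0.13. In both genes all transgenic arrays were apart from the controls, but the line difference could be placed neither within the bound nor past the threshold.

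Interferon-stimulated and MHC class I genes were lower where they were called: 7 of 22 fell and 0 rose, against 7.39% and 6.26% over all genes. Their median was -0.23. Ifi27l2a fell by 0.56 ± 0.071 and was of like size. Irf7, a master regulator of interferon genes, was at 117 and 62.9 in the RKIP line, 79.4 and 83.4 in the GRK-Inh line and 174 and 150 in controls, a fall of 0.66 ± 0.17. This call was lost without either GRK-Inh array, without either control array, without the variance trend and in the comparison of 4 arrays with 2. In that comparison 3 members of the list were called lower, and 4 were without the variance trend.

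In some lists many members were called jointly although one line carried most of the change. Of 18 heat shock genes 15 rose, against 6.26% over all genes. None of these rises was of like size, beside 0.524% over all genes. The list medians were 0.13 in the RKIP line and 0.70 in the GRK-Inh line. Hspa1a was at 206 and 192 in the RKIP line, 1440 and 1662 in the GRK-Inh line and 153 and 143 in controls, and its signal cannot be told apart with certainty from that of its near-identical neighbour Hspa1b. Of 21 immediate early genes 10 rose, against the same 6.26%, with medians of -0.043 and 0.76 in the 2 lines. Fos was at 57.3 and 44.4 in the RKIP line, 838 and 880 in the GRK-Inh line and 72.9 and 108 in controls. Its joint change of 1.12 is an average over lines that moved apart, and no common change. In the comparison of 4 arrays with 2, heat shock genes called higher numbered 2 and immediate early genes 1.

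Nr4a1, an immediate early nuclear receptor gene, differed from Fos in this. It was at 361 and 334 in the RKIP line, 425 and 404 in the GRK-Inh line and 128 and 171 in controls, with changes of 1.00 and 1.23. The line difference of Nr4a1 was not called, but its interval reached just past the bound, so the rise was not of like size by the rule. Of 20 unfolded protein response genes 13 rose, against 6.26% over all genes. Dnajb9 and Dnajc3, both co-chaperones of the endoplasmic reticulum, rose within the bound (0.52 ± 0.047 and 0.51 ± 0.056). Dnajc3 was at 0.34 and 0.69 in the RKIP and GRK-Inh lines with a called line difference, and its call was lost in the comparison of 4 arrays with 2. Of its 4 other probe sets 3 had a line difference interval reaching outside the bound. The line difference was called for 13 of the 20, and 3 members were called higher in the comparison of 4 arrays with 2. Of 20 NRF2 and glutathione genes 7 rose and 2 fell, against 6.26% and 7.39% over all genes, among them the glutathione transferase gene Gstm2, which rose by 0.58 ± 0.067 at like size. The 7 rises numbered 1 in that comparison, 1 without the variance trend and 3 to 4 without a control array.

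**Figure D4:**
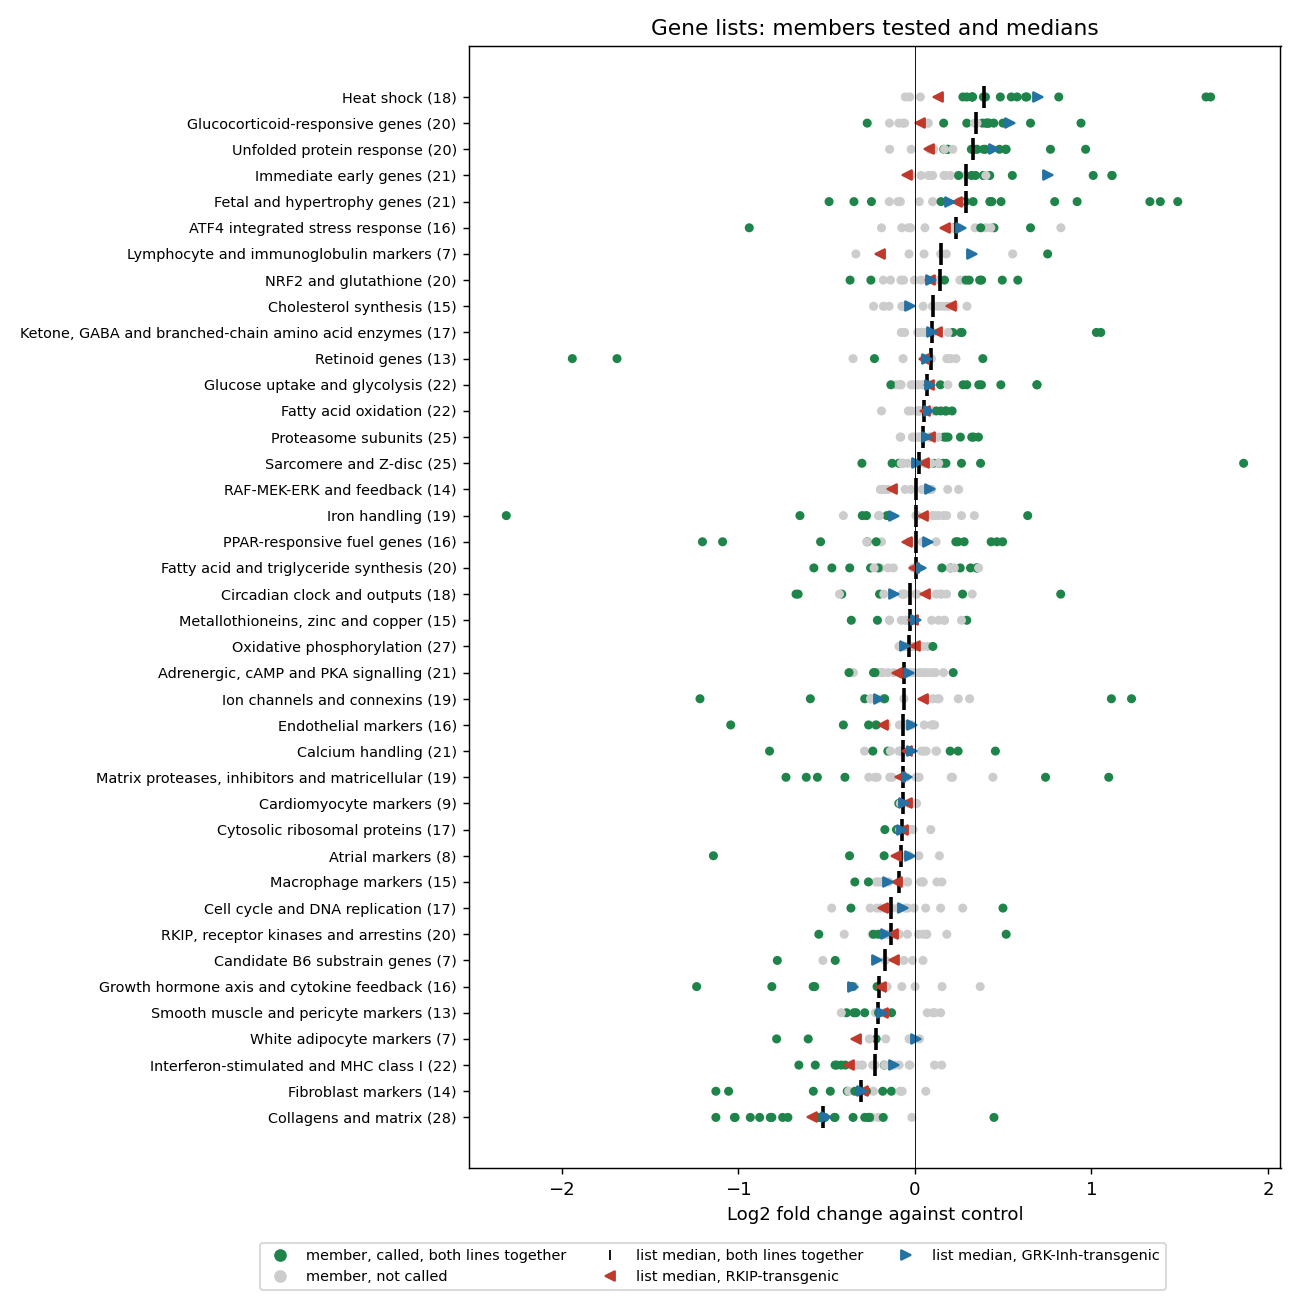
Log2 change against control of every tested member of the gene lists with at least 7 tested members (number in brackets), both lines together; green points were called, grey were not, black bars are list medians and the red and blue triangles are the medians of the RKIP and GRK-Inh lines. Collagens and matrix lie lowest with both triangles at -0.58 and -0.51, whereas for heat shock and immediate early genes the blue triangle (0.70 and 0.76) is far from the red (0.13 and -0.043).

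Candidate genes for differences between B6 substrains were examined beside these results. Of 7 tested 2 fell, Wdfy1 and Nnt, and 0 rose, against 7.39% and 6.26% over all genes. The other members were not called, and the list median was -0.17. Wdfy1 was at 546 and 563 in the RKIP line, 137 and 117 in the GRK-Inh line and 538 and 484 in controls, so that its joint call (-0.78) rests on the GRK-Inh line, and the call was lost in the comparison of 4 arrays with 2. Nnt, a mitochondrial transhydrogenase gene that is defective in some B6 substrains, was at 10700 and 11830, 8000 and 8267, and 13160 and 13020 in the same order, with log2 changes of -0.22 and -0.68 and its call lost in the same way. Genetic background and transgene cannot be told apart in this design.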

How the data were processed

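Heart RNA of 6 samples, 2 in each of 3 groups, was hybridised as biotin-labelled cRNA to Affymetrix arrays, per the labels' protocols. The authors deposited a linear signal intensity for each probe set, computed with GCOS (version not given) per the submitters' processing notes. On every array these intensities had a 2% trimmed mean of 300.002, and medians per array lay between 50.3 and 55.0. The number of arrays limits the precision: the median SE was 0.0993 for the joint log2 change and 0.115 for the line difference.

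Of 45101 probe sets, 64 controls were set aside; 34945 had a single gene symbol, 932 several and 9160 none, and 34741 of the first matched a RefSeq gene. Values were taken as log2(signal + 50). The probe set of highest mean stood for each of 18193 genes, and the 11254 with a mean log2 value of at least 6.65, the median over all probe sets (a signal of 50.2), were tested. limma 3.58.1 in R 4.3.3 fitted a mean per group over the 6 arrays (3 residual and 7.6 prior degrees of freedom, variance trend). The joint contrast is the mean of both lines minus control. Keeping a mean per line leaves the difference between the lines out of the error.

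The members, lists, thresholds and alternatives were chosen with earlier results of these data known. The rule for named genes took the 15 largest rises and falls of like size, up to 5 called members per list (or 2 of highest signal), the 6 largest changes per direction, the 6 largest line differences, 5 genes on each side of the bound, and Pebp1, Nppa, Nppb, Myh6, Myh7, Acta1, Tfrc and Myot, which gave 193 genes. List members beyond these were named after their values were seen, and the alternatives for single genes cover the 193. Promoter windows came from a RefSeq table (GRCm38.p6). The 4 printed windows were picked by symbol, and for the motif shares genes were matched by gene identifier. On simulated data with 11254 genes, changes of equal size 0.6, 1 and 2 (log2) were called in 82%, 96% and 100% of 50 genes each and labelled as of like size in 66%, 76% and 72%; 11 of 285 calls were of unchanged genes. Alternatives were another normalization, offset, filter, probe set rule, variance model, threshold or bound, the 4 transgenic arrays as one group, the replicate number as a block, and each array left out. Python 3.11.15 with matplotlib 3.10.9 made the figures.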

Additional observations from a re-analysis of the deposited data

Results flagged for a closer look

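Of the 193 named genes, 81 had a called difference between the lines in limma, 36 with a higher value in the RKIP line and 45 with a higher value in the GRK-Inh line, so their joint change is an average over lines that differ in size. Values are RKIP-transgenic minus GRK-Inh-transgenic on the log2 scale. Among genes called higher jointly, the RKIP value was the larger in Abat (1.47), Myh7 (0.85), Pfkfb2 (0.73), Acta1 (0.72), Bdh1 (0.67), Aqp8 (0.61), Gstm1 (0.48), Eif2s3y (0.45), Tpp2 (0.33), Slc2a1 (0.33), Cacna1c (0.31), Cidea (0.25), Trim54 (0.25), Psmc1 (0.25) and S100a1 (0.19). Among genes called lower jointly, it was the higher value in Wdfy1 (1.78), Ccn5 (1.18), Dbp (0.87), Chac1 (0.78), Per3 (0.77), Agpat2 (0.76), Phlda1 (0.70), Bmp10 (0.58), Tfrc (0.53), Lum (0.52), Scd2 (0.51), Nnt (0.47), Ephx1 (0.47), Cdkn1c (0.46), Mrc1 (0.45), Igf1 (0.37), Tcap (0.35), Pdgfrb (0.30), Igfbp5 (0.25) and Csf1r (0.24).

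The GRK-Inh value was the larger among genes called higher jointly in Fos (-3.17), Hspa1b (-2.91), Hspa1a (-2.68), Ighm (-2.52), Abra (-1.99), Zbtb16 (-1.70), Nr4a3 (-1.57), Hsph1 (-1.54), Tnfrsf12a (-1.30), Timp4 (-1.16), Sgk1 (-1.16), Cdkn1a (-1.03), Hsp90aa1 (-1.02), Ier5 (-0.98), Sdf2l1 (-0.97), Rcan1 (-0.95), Ddit4 (-0.93), Zfp36 (-0.83), Fam107a (-0.76), Creld2 (-0.73), Mt1 (-0.73), Dnajb4 (-0.70), Arntl (-0.64), Manf (-0.64), Pgam1 (-0.48), Dhrs3 (-0.45), Ccn1 (-0.43), Nppb (-0.39), Dnajc3 (-0.34), Ankrd23 (-0.30), Adcy6 (-0.29), Lpin1 (-0.20) and Cox6a2 (-0.13). Among genes called lower jointly the RKIP line was the lower in Car3 (-1.67), Adipoq (-1.52), Col4a1 (-0.75), Rsad2 (-0.57), Aqp1 (-0.45), Angptl4 (-0.43), Myl7 (-0.36), Rgs2 (-0.35), Ppargc1b (-0.34), Acta2 (-0.31) and Asph (-0.23). Fdft1 (0.31) and Ier3 (-0.36) had a called line difference without a joint call.

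In 4 of the 193 genes a single array stood apart from the other 3 transgenic arrays, with a gap above Dixon's critical share of their range, which chance gives in about 1 of 20 groups of 4. For Scn4b the RKIP-transgenic array 2 (341) lay above the others, a gap of 0.876 of the range, and all 4 arrays stayed above both controls. For Dgat1, a triglyceride synthesis gene, GRK-Inh array 1 (340.0) was high (0.856). For Hmgcs1, of cholesterol synthesis, RKIP array 2 (1731) was low (0.836), and for Ifit3, an interferon-stimulated gene, GRK-Inh array 2 (278) was low (0.83).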

How the results depend on the processing

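Among the 193 named genes no alternative reversed a called joint change, while the number of calls depended strongly on how the error was estimated. With 705 genes higher and 832 lower as the base, the counts were 237 and 296 with a variance without trend, 181 and 200 with the 4 transgenic arrays as one group, and 355 and 359 at an adjusted p under 0.01; all probe sets tested one by one gave 1082 higher. Leaving out single arrays gave 374 to 584 higher and 350 to 710 lower, with 425 and 350 without B6 control array 1 and 374 and 373 without array 2. Of the 147 changes of like size, 125 were still called with the 4 arrays as one group and 126 without the variance trend, and 118 and 119 without B6 control array 1 or 2. The counts of like size, 59 rises and 88 falls, were 111 and 134 with all probe sets, 22 and 36 with a bound of 0.3, and 95 and 133 with a bound of 0.75. They were 33 and 45 with the bound set at 0.5 times the absolute joint change of each gene. With a minimum change of 0.3 they were 251 and 332, and with a minimum change of 1 they were 6 and 7. Single arrays left out gave 48 to 77 rises and 68 to 83 falls, and an offset of 200 gave 101 genes in all, 78 of them shared. Called line differences among the jointly called genes, 384 in all, numbered 246 without the filter, 89 without trend, 160 at the stricter threshold and 199 to 230 with an array left out. The replicate numbers do not pair the arrays (correlations of deviations 0.026, -0.03 and -0.035). With the replicate block 1456 genes were called, and 148 were of like size, 141 of them shared. Signals near the filter level of 50.2, as for Cyp26b1 and Lrat on transgenic and Aqp8 on control arrays, limit the size of a change that can be stated.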

Other observations

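Counts for gene groups not described above stand beside 6.26% called higher and 7.39% called lower over all genes. Of 25 proteasome subunit genes 7 rose, by 0.17 to 0.36 on the log2 scale, and 0 fell. Psmd2 and Psmc5, of the regulatory particle, rose by 0.36 and 0.33. Psmd11 rose by 0.32 with the probe set used, a call lost under 7 of 18 alternatives, and its 4 other probe sets gave -0.20 to 0.11 without a call. The median of the list was 0.048, and the count was 2 to 4 without a control array and 2 with the 4 transgenic arrays as one group. Of 17 cytosolic ribosomal protein genes 2 fell and 0 rose (11.8%, near the 13.7% called over all genes), and 0 fell without the variance trend. Among 18 clock genes, 2 rose and 4 fell: Arntl, an activator of the core loop, rose jointly by 0.83, with values of 0.51 and 1.14 in the RKIP and GRK-Inh lines. The clock output gene Dbp (-0.23 and -1.10) and the clock gene Per3 (-0.29 and -1.06) fell jointly, and the line difference was called for all 3. With the 4 transgenic arrays as one group, 0 clock genes were called higher or lower. Of 20 glucocorticoid-responsive genes 11 rose and 1 fell, with medians of 0.027 and 0.54 in the RKIP and GRK-Inh lines. Of like size were 0, beside 1.31% over all genes. That count of rises was 1 with the 4 arrays as one group and 6 to 8 without a control array.

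Among the falls of like size, picked after their values were seen, were Dnmt3a, a DNA methyltransferase gene (-0.72 ± 0.064), Abca1, a cholesterol exporter gene (-0.68 ± 0.058), Klf10, a TGF-beta-inducible regulator (-0.61 ± 0.069), and Fstl1, a secreted glycoprotein gene (-0.57 ± 0.049). Dnmt3a was at 788 and 782 in the RKIP line, 759 and 693 in the GRK-Inh line and 1303 and 1250 in controls, with no overlap. Among the rises picked the same way were Glul, the glutamine synthetase gene (0.57 ± 0.045), Perm1, a regulator of muscle energy genes (0.52 ± 0.065), and Mknk2, a kinase gene downstream of ERK (0.52 ± 0.042).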
